A study of Mus musculus with 21 samples.

Results

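The genes described here are 7 Serpina3 genes of a cluster on chromosome 12 (Serpina3n, Serpina3m, Serpina3i, Serpina3g, Serpina3f, Serpina3c and Serpina3k), out of 55401 genes in the count table of a forebrain RNA sequencing study of 21 mice. They were taken by name from the cluster, and the family was chosen by the measured rise of Serpina3n in APOE4 mice without tau in these same libraries, so the levels in those mice are given as a description, with no test. All 7 genes were present in the count table and the FPKM table (fragments scaled by transcript length and library size, which allows levels of different genes to be compared). The cluster also held Serpina3a and Serpina3j, at 0 counts in every mouse, Serpina3b, at 8 counts in 1 PS/E2H and 1 PS/E3H mouse and 0 elsewhere, and the pseudogene Serpina3h, at 0 to 16 counts.

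All mice were homozygous for a humanized APOE allele, which replaces the mouse gene. The parental lines E2H, E3H and E4H (APOE2, APOE3 and APOE4; n = 3 mice each) carried no tau transgene and were 9 to 10 months old. PS/E2H, PS/E3H and PS/E4H (n = 4 mice each) were the same genotypes with the P301S mutant human tau transgene of line PS19 in the heterozygous state, collected when the hindlimbs were paralyzed. The study kept PS19 mice on a B6/C3H background and the APOE lines on C57BL6, and made the PS19 groups by crossing and back-crossing to the APOE lines. Tau genotype, paralysis, age at death and strain background therefore cannot be told apart where PS19 mice are set against parental mice. The APOE lines were each kept as homozygotes, so APOE allele and other differences between the lines cannot be told apart either. This also holds between the PS19 groups, which may differ in strain background too. The mice of the PS19 groups were all at end stage, at ages the labels do not give. By the study's medians, PS/E3H mice reached paralysis later than PS/E2H and PS/E4H mice, so age may also differ between the PS19 groups.

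Between 59265459 and 75932183 counts were assigned per mouse (median 63751715), and markers of neurons, astrocytes, oligodendrocytes, microglia and endothelium were detected in every mouse. The study's methods describe the mice as male apart from a few females in E4H, PS/E2H and PS/E4H, and the files showed the reverse. In 17 of 21 mice, Xist, the transcript of the inactive X chromosome, was at 12188 counts or more and Ddx3y, on the Y chromosome, at 21 or fewer. The other 4 mice (1 E4H, 1 PS/E2H and 2 PS/E4H) had at least 2517 Ddx3y counts and at most 189 Xist counts. Results were also computed without these 4 mice. RNA came from whole forebrain, so fewer cells of a type and less RNA per cell cannot be told apart.

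Serpins are serine protease inhibitors. A protease cleaves an exposed reactive centre loop near the carboxyl end of the inhibitor, and the inhibitor then changes shape and traps the enzyme, so the loop sequence sets which proteases are bound. In mice the single human gene for antichymotrypsin, SERPINA3, corresponds to this multigene cluster. Serpina3n is a secreted inhibitor of granzyme B and leukocyte elastase and is known in brain as a gene of reactive astrocytes and of disease-associated oligodendrocytes. Serpina3g, also called Spi2A, is an intracellular inhibitor of cathepsins known from lymphoid and myeloid cells, and Serpina3k and Serpina3c are related to kallikrein-binding proteins, with Serpina3k abundant in liver.

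The members are close copies, which bears on how reads can be assigned. The coding sequence of Serpina3n (chromosome 12, 104406729 to 104414329, plus strand, GRCm38) was between 83.8% and 86.0% identical to the other 6. Serpina3m and Serpina3k were 92.0% identical and start at the same annotated base (104338486), and Serpina3i and Serpina3f were 91.3% identical. The longest coding run shared by Serpina3n and Serpina3m, 65 bases across the junction of exons 4 and 5, was identical in both. It is shown because any fragment inside it fits both genes. On Serpina3n it lies at chr12:104412479-104412484 and chr12:104413412-104413470, and on Serpina3m at chr12:104392787-104392792 and chr12:104393733-104393791.
Serpina3n and Serpina3m: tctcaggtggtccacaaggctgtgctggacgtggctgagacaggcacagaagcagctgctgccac

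Past that run the genes part. The next coding bases, in the last coding exon and over the region of the reactive centre loop, are given from the GRCm38 genome along the strand of each gene, since they carry most of what tells these inhibitors apart. Capitals mark bases that differ from Serpina3n in the alignment. The Serpina3n stretch lies at chr12:104413471-104413545, Serpina3m at chr12:104393792-104393866, Serpina3i at chr12:104268503-104268577, Serpina3g at chr12:104241095-104241169, Serpina3f at chr12:104220268-104220345, Serpina3c at chr12:104147299-104147364 (minus strand) and Serpina3k at chr12:104345292-104345360.
Serpina3n: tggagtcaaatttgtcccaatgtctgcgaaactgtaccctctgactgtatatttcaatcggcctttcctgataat
Serpina3m: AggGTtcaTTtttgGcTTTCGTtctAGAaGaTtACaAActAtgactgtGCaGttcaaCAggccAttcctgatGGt
Serpina3i: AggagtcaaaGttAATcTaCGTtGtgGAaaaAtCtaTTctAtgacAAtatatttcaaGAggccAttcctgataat
Serpina3g: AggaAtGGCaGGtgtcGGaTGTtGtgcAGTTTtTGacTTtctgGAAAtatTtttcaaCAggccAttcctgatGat
Serpina3f: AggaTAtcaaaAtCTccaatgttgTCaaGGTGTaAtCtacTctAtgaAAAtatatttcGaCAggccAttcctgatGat
Serpina3c: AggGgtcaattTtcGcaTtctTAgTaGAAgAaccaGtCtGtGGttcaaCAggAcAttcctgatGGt
Serpina3k: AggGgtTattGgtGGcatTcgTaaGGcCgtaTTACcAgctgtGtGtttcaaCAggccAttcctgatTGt

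Over this stretch identity to Serpina3n was 60.0% for Serpina3m, 70.7% for Serpina3i, 58.7% for Serpina3g, 73.6% for Serpina3f, 65.2% for Serpina3c and 68.7% for Serpina3k, all below the identity over the whole coding sequence. Of the 50-base windows in the annotated transcripts of each gene, 6.90% in Serpina3n, 19.1% in Serpina3m, 15.9% in Serpina3i, 15.5% in Serpina3g, 10.6% in Serpina3f, 4.25% in Serpina3c and 14.0% in Serpina3k also occurred in another gene. For Serpina3m the main partner was Serpina3k (16.0% of windows), and 1.12% occurred in Serpina3n. Counts of the low members are therefore uncertain where fragments fall in shared runs, and the rule by which shared fragments were divided is not given in the sources used here.

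The upstream sequences are close too. RefSeq promoter windows (GRCm38.p6) were matched for 5 of the 7 members. In the 250 bases before the start, Serpina3n and Serpina3c aligned over 247 bases with 229 identical, 92.7%, while the windows of Serpina3i, Serpina3g and Serpina3f were 68.4% to 68.6% identical to Serpina3n over the bases that aligned. The first pair is shown because the levels of these 2 genes in forebrain, given below, were far apart. Capitals mark bases that differ or were not aligned. Serpina3n lies at chr12:104406458-104406707 (plus strand) and Serpina3c at chr12:104153873-104154122 (minus strand).
Serpina3n: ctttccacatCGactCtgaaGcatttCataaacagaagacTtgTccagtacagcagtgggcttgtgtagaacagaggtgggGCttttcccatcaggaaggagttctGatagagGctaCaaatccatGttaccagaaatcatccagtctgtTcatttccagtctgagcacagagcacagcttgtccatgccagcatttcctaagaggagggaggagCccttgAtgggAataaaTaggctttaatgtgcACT
Serpina3c: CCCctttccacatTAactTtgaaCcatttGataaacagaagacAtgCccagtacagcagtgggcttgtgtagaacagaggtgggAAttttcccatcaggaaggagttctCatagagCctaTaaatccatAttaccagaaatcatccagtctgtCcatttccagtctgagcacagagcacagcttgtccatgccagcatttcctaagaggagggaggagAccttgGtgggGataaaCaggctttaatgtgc

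The palindrome of TTC and GAA with any 3 bases between them, the core of STAT sites and the same on both strands, had 1 match each in the windows of Serpina3i, Serpina3g and Serpina3f and none in those of Serpina3n and Serpina3c. It occurred in 2306 of 32851 promoter windows of this length, 7.02%. A TATAAA match on the gene strand was found for Serpina3c, and a CCAAT match on either strand for Serpina3i, against 7.59% and 33.9% of all windows. These letter matches are descriptions of the windows only.

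Serpina3n carried nearly all of the family's expression. It made up between 93.3% and 99.5% of the summed FPKM of the 7 members in each mouse, with a median of 97.0%. In E3H mice it stood at 12.2 ± 0.957 FPKM (SD, n = 3), Serpina3g at 0.408 ± 0.279 FPKM, Serpina3m at 0.0545 ± 0.0556 FPKM and Serpina3c at 0.0406 ± 0.0406 FPKM. Serpina3n was thus far above every other member in the group where it was lowest, including Serpina3c with its matching promoter window.

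Within Serpina3n, levels are given as CPM, the count divided by a library size that was scaled by TMM over all 21 mice. The 3 E3H mice were at 26.2, 28.2 and 24.9 CPM. The 3 E2H mice were at 32.8, 32.5 and 28.1 CPM. The 3 E4H mice were at 159, 138 and 169 CPM. The E2H and E3H mice overlapped by 1 mouse of each line, and every E4H mouse lay above every E2H and E3H mouse. With tau, the 4 PS/E2H mice were at 118, 105, 190.3 and 186 CPM. The 4 PS/E3H mice were at 72.4, 171, 198 and 299.6 CPM, and the 4 PS/E4H mice at 554, 417, 426 and 263 CPM. The spread in CPM between PS19 mice of the same genotype was wider than in any parental line.

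**Figure D1:**
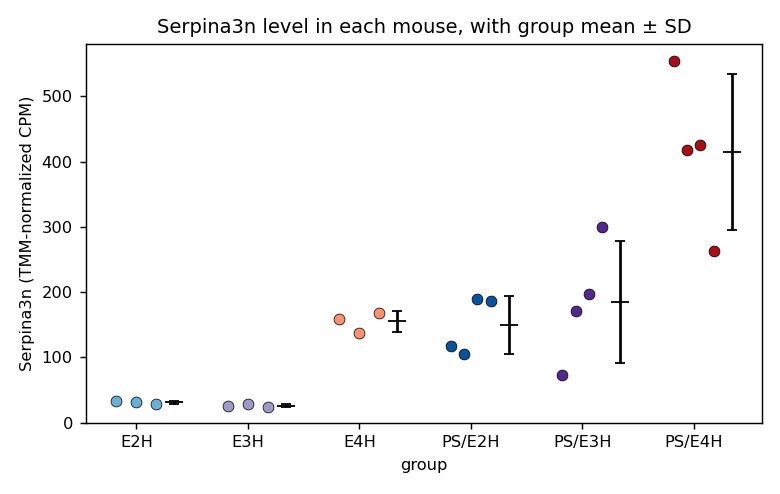
Serpina3n level in each mouse (y axis, TMM-normalized CPM on a linear axis from 0) by group (x axis), with points for mice and a bar beside them for the group mean ± SD. The E4H mice, at 138 to 169 CPM, sit above all E2H and E3H mice and within the range of the PS/E2H and PS/E3H mice, and 3 of 4 PS/E4H mice lie above every mouse of the other groups.

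In order of their means, the groups were E3H at 26.4 ± 1.64 CPM (SD, n = 3), E2H at 31.2 ± 2.61 CPM (n = 3), PS/E2H at 149.8 ± 44.6 CPM (n = 4), E4H at 155 ± 15.7 CPM (n = 3), PS/E3H at 185 ± 93.4 CPM (n = 4) and PS/E4H at 415 ± 119 CPM (n = 4). Neighbours in this order overlapped at every step except from E2H to PS/E2H. E4H mice, which carry no tau transgene, thus had Serpina3n in the range of paralyzed PS/E2H and PS/E3H mice. The E4H level was 5.88-fold that of E3H (log2 change 2.56 ± 0.0836 SE) and 5.01-fold that of E2H (log2 change 2.32 ± 0.103 SE). The family was selected on this contrast, so no test of it is given, and it shifted little without the E4H mouse that had Ddx3y counts (2.49 over E3H and 2.25 over E2H).

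Serpina3m was the other member with more counts in E4H mice. It was at 233, 286 and 285 counts in the 3 E4H mice. In E3H mice it was at 8, 13 and 0 counts, and in E2H mice at 5, 0 and 0. Every E4H mouse was above every E3H and E2H mouse. The E4H mean of 3.70 ± 0.202 CPM (SD, n = 3) stood above the E3H mean of 0.106 ± 0.104 CPM by a fitted 36.2-fold (log2 change 5.18 ± 0.568 SE). That fold rests on the few counts of the E3H mice, with a log2 change of 4.56 without E3H mouse 3 and 6.07 without E3H mouse 2. In FPKM, which sets genes on one scale, Serpina3m in E4H mice was at 1.99 ± 0.107, against 69.8 ± 7.0 for Serpina3n in the same mice.

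With the tau transgene, Serpina3m was either high or not detected in APOE4 mice. The 4 PS/E4H mice had 885, 0, 640 and 0 counts, and a count of 0 allows up to 3 counts, or 0.0389 to 0.0530 CPM in these libraries. The 4 PS/E2H mice had 0, 0, 12 and 32 counts, and the 4 PS/E3H mice 0, 8, 42 and 65. A PS/E4H mouse was either above all E4H mice or at 0, and both of the mice at 0 had Serpina3n levels above every E4H mouse.

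Set against Serpina3n, the Serpina3m counts fell at similar ratios in the APOE4 mice that had them. There were 2.18, 2.75 and 2.27 Serpina3m counts per 100 Serpina3n counts in the E4H mice and 2.58 and 2.44 in the 2 PS/E4H mice with Serpina3m. The remaining mice were at 0.739 or below, PS/E3H mouse 4 with its 299.6 CPM of Serpina3n included, at 0.309. Serpina3e-ps, a pseudogene of the cluster with which Serpina3n shares 2.68% of its 50-base windows, had 25 and 39 counts in the same 2 PS/E4H mice (mice 1 and 3) and 0 in all 19 others. Of these 4 PS/E4H mice, mice 1 and 4 had Ddx3y counts, 1 with and 1 without Serpina3m. How far the assignment of shared fragments enters these values was not tested.

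**Figure D2:**
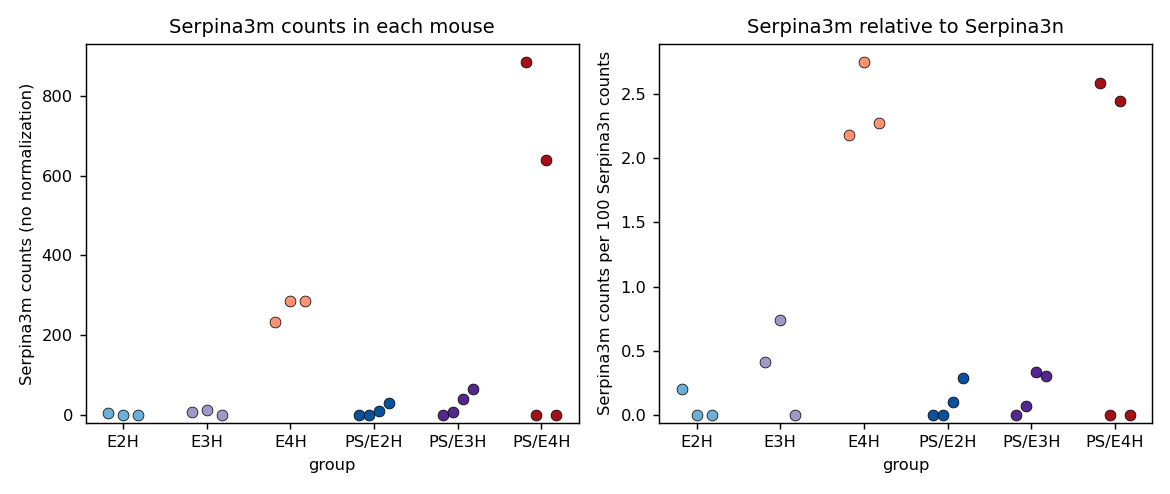
Serpina3m counts without normalization (left, y axis) and Serpina3m counts per 100 Serpina3n counts (right, y axis) in each mouse, by group (x axis), with 1 point per mouse. The E4H mice sit at 233 to 286 counts and 2 of 4 PS/E4H mice at 640 and 885, with the other 2 at 0 counts, and on the right these 5 mice stand at 2.18 to 2.75 while all others are at 0.739 or below.

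Without tau, Serpina3n and Serpina3m were thus the members that stood higher in all E4H mice than in all E3H and E2H mice, and each of the other 5 overlapped with at least 1 of these lines or was lower. Among the 20460 genes tested in both E4H comparisons, 375 (1.83%) had all E4H mice above all E3H and E2H mice, against 2 of the 7 members. Of the 7, only Serpina3n, Serpina3m and Serpina3g passed the filter in both, Serpina3m only through the E4H mice. The contrast is also the one the family was chosen by. Across the whole table, 0.1% of genes passed an adjusted p under 0.05 and a 2-fold change in E4H against E3H mice, and 0.187% in E4H against E2H mice. Serpina3g counts were 57, 39 and 79 in E4H mice, 35, 98 and 51 in E3H mice and 156, 69 and 110 in E2H mice. They overlapped with E3H (log2 change -0.15 ± 0.464 SE, and 0.51 without E3H mouse 2), and in CPM each E4H mouse was below each E2H mouse (log2 change -0.98 ± 0.346 SE). Serpina3f was at 0 in all E4H and E3H mice and at 11, 4 and 9 counts in E2H mice.

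Serpina3i had 4, 0 and 0 counts in E4H mice, 0 in all E3H mice and 4, 0 and 11 in E2H mice. Serpina3c was at 0 to 15 counts in the 9 parental mice, with overlap among the lines. Serpina3k, the liver-abundant member, was found in only 4 of the 21 mice, with 13 and 15 counts in E3H mice 1 and 2 and 34 and 10 counts in E4H mice 1 and 3. These were also the 4 mice with the most transcripts of albumin (Alb), the main liver plasma protein, at 542, 280, 264 and 143 counts, against 0 to 29 in the other 17. Summed over the 10 liver markers without Ttr, which choroid plexus also makes, they were at 13.3, 7.46, 7.04 and 4.29 CPM, and the other mice at 0.478 to 1.41 CPM. Serpina3k shares 12.8% of its windows with Serpina3m, and it was at 0 in the PS/E4H mice with the most Serpina3m. The part of liver-type transcripts in the Serpina3k counts was not tested.

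**Figure D3:**
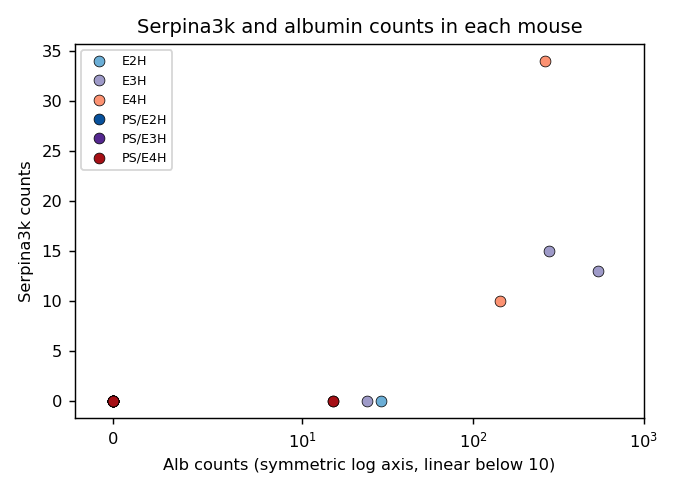
Serpina3k counts (y axis) against Alb counts (x axis, symmetric log axis, linear below 10) with 1 point per mouse coloured by group, points at 0 Serpina3k counts lying over each other. The 4 mice with Serpina3k are 2 E3H and 2 E4H mice at 143 to 542 Alb counts, and the other 17 mice have no Serpina3k and 0 to 29 Alb counts.

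The parental comparison that does not use the APOE4 mice asked whether APOE2 and APOE3 differ in the family. A gene is called here, as in all comparisons below, at an adjusted p under 0.05 (edgeR's quasi-likelihood test, Benjamini-Hochberg adjustment over all genes tested) together with at least a 2-fold change. Between E2H and E3H mice 2 members passed the filter on low counts and 0 were called, against 0.144% of all genes. Serpina3n differed by 0.23 ± 0.0981 SE on the log2 scale (edgeR adjusted p = 0.337) and Serpina3g by 0.83 ± 0.445 SE (edgeR adjusted p = 0.426). At an unadjusted p under 0.05, 1 member passed, Serpina3n, and DESeq2 and limma called 0. By edgeR's p, Serpina3n ranked only 2631 among the 20797 genes tested. The share of all genes at an unadjusted p under 0.05 was not computed for any comparison of 2 groups. Counts at that threshold, here and below, are therefore descriptions only.

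Each PS19 group was then set against its parental line, to ask how the family differed between them in each APOE background. Serpina3n rose in all 3. It was 4.79-fold higher in PS/E2H than in E2H mice (log2 change 2.26 ± 0.217 SE, edgeR adjusted p = 0.00222). In PS/E3H against E3H mice it was 6.94-fold higher (log2 change 2.80 ± 0.373 SE, edgeR adjusted p = 0.00450). In PS/E4H against E4H mice it was 2.66-fold higher (log2 change 1.41 ± 0.203 SE, edgeR adjusted p = 0.00211). In each comparison every PS19 mouse was above every parental mouse. The share of all genes that separate in this way was not computed for any comparison with PS19 mice, so such separations are descriptions only. Of the members that passed the filter, 1 of 4 was called in PS/E2H, 1 of 4 in PS/E3H and 2 of 5 in PS/E4H mice, against 0.485%, 1.32% and 2.98% of all genes tested. Of the 2 called in PS/E4H mice, 1 passed the filter only through the PS/E4H mice themselves. Among those not called, Serpina3i in PS/E3H and Serpina3c in PS/E2H and PS/E4H mice also passed it only through the PS19 mice.

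The second gene called in PS/E4H mice was Serpina3i. It passed the filter on low counts only through the PS/E4H mice, where it was high, so this call is no independent support for a rise. It had 51, 8, 27 and 18 counts in PS/E4H mice and 4, 0 and 0 in E4H mice, and the groups did not overlap (log2 change 4.34 ± 1.14 SE, edgeR adjusted p = 0.0297). The call was lost with no filter (adjusted p = 0.0742), with 1 fit over all groups (adjusted p = 0.111), by limma on FPKM (adjusted p = 0.0852 and 0.141 with pseudocounts of 0.1 and 1), with the replicate number as a block (adjusted p = 0.0540) and with Xist as a covariate (adjusted p = 0.0659). It was also lost without E4H mouse 2 (adjusted p = 0.120) or E4H mouse 3 (adjusted p = 0.0874), and without PS/E4H mouse 1, 3 or 4, or without the mice with Ddx3y counts, the gene no longer passed the filter. In PS/E3H mice Serpina3i had 0, 11, 24 and 138 counts and in PS/E2H mice 0, 10, 39 and 38. Against E3H, where all mice were at 0, the PS/E3H mean of 0.631 ± 0.904 CPM (SD, n = 4) was at least 14.8-fold higher than the level of 3 counts per library, with an edgeR adjusted p of 0.0828, and 1 PS/E3H mouse was itself at 0. Here too the gene passed the filter only through the PS19 mice. Without PS/E3H mouse 4, which had 138 counts, the mean was 0.186 CPM, at least 4.37-fold higher. Between PS/E2H and E2H mice the log2 fold change was 2.32 ± 1.31 SE (edgeR adjusted p = 0.599).

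Serpina3g, the intracellular cathepsin inhibitor, was detected in every mouse and was not called in any comparison in which members were tested. It had 73, 90, 122 and 69 counts in PS/E4H mice, and in CPM each was above each E4H mouse (log2 change 0.81 ± 0.337 SE, edgeR adjusted p = 0.134). It had 32, 100, 31 and 124 counts in PS/E3H mice and 68, 74, 55 and 100 in PS/E2H mice, with log2 fold changes over the parental line of 0.25 ± 0.573 SE and -0.42 ± 0.314 SE. Serpina3m did not pass the test in PS/E4H against E4H mice (log2 change 0.73 ± 1.32 SE, edgeR adjusted p = 0.763) nor in PS/E3H against E3H mice (log2 change 2.03 ± 1.32 SE, edgeR adjusted p = 0.425). In the first of these its direction turned on the log2(FPKM + 1) scale of limma, where the difference was -0.13, with 2 of 4 PS/E4H mice at 0.

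Serpina3f and Serpina3c were low with tau as well, at 0 to 48 and 0 to 27 counts in the 12 PS19 mice. Serpina3f had 12, 7, 0 and 48 counts in PS/E2H mice, 0, 4, 7 and 0 in PS/E3H mice and 4, 22, 32 and 0 in PS/E4H mice. The PS/E4H mean of 0.237 ± 0.246 CPM (SD, n = 4) was at least 5.69-fold higher than 3 counts per library, and at least 3.42-fold without PS/E4H mouse 3, where all E4H mice were at 0, and the gene did not pass the filter for a test. Serpina3c had 13, 15, 7 and 27 counts in PS/E2H mice, 8, 12, 0 and 0 in PS/E3H mice and 0, 12, 17 and 15 in PS/E4H mice. Its log2 fold change was 1.37 ± 0.708 SE (edgeR adjusted p = 0.547) in PS/E2H against E2H mice and 0.67 ± 0.946 SE (edgeR adjusted p = 0.691) in PS/E4H against E4H mice. In both comparisons Serpina3c passed the filter on low counts only through the PS19 mice, so neither value is independent support for a rise. It had 8, 4 and 8 counts in E2H mice and 6, 10 and 8 in E4H mice.

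**Figure D4:**
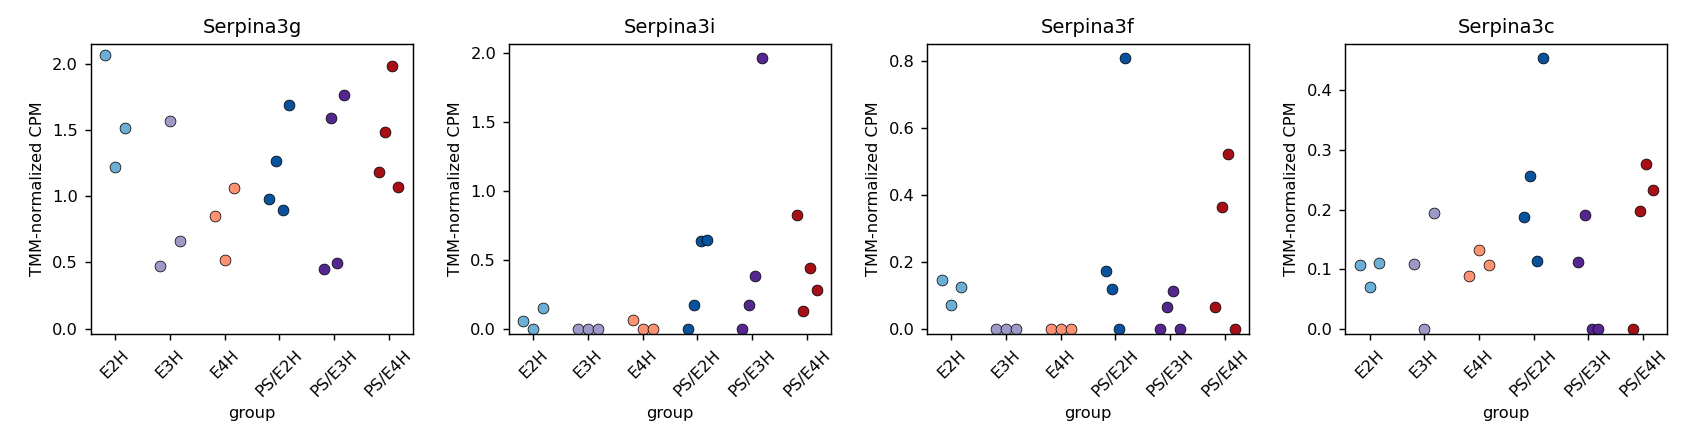
Level of Serpina3g, Serpina3i, Serpina3f and Serpina3c in each mouse (y axes, TMM-normalized CPM, each panel on its own linear scale) by group (x axis), with 1 point per mouse. Serpina3g is above 0 in every mouse and overlaps between most groups, while Serpina3i is above 0 in 10 of 12 PS19 mice and 3 of 9 parental mice.

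Whether the tau effect differed between APOE backgrounds was tested for APOE2 against APOE3 as an interaction term. For Serpina3n the difference of the 2 log2 fold changes was -0.53 ± 0.453 SE (edgeR adjusted p = 0.905), and 0 of 5 members and 0% of 22133 genes passed an adjusted p under 0.05. At an unadjusted p under 0.05, 1265 genes passed, and DESeq2 called 10. The tau effect on Serpina3n in APOE4 mice differed from that in APOE3 mice by -1.39 on the log2 scale (standard error 0.450) and from that in APOE2 mice by -0.85 ± 0.317 SE. These values contain the E4H mice by which the family was chosen, so they are given without a test, and the smaller fold starts from the higher E4H level.

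Among the paralyzed mice the APOE genotypes were compared with each other. Serpina3n was 2.77-fold higher in PS/E4H than in PS/E2H mice and every PS/E4H mouse was above every PS/E2H mouse, but the edgeR adjusted p was 0.0504 (log2 change 1.47 ± 0.237 SE), so it was not called. DESeq2 called it (adjusted p = 0.000411), as did the fit over all 6 groups (adjusted p = 0.0213). Without PS/E4H mouse 4, the lowest of its group, the log2 fold change was 1.63 and the gene was called. Over the planned and added alternatives the adjusted p ran from 0.000411 to 0.330. Against PS/E3H mice the log2 fold change was 1.16 ± 0.346 SE (edgeR adjusted p = 0.758), with an unadjusted p of 0.00649, and the highest PS/E3H mouse was above the lowest PS/E4H mouse.

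Between PS/E2H and PS/E3H mice Serpina3n differed by -0.31 ± 0.344 SE on the log2 scale (edgeR adjusted p = 0.708). Of the members tested, 0 of 6 were called in PS/E4H against PS/E2H, 0 of 5 in PS/E4H against PS/E3H and 0 of 5 in PS/E2H against PS/E3H by edgeR's quasi-likelihood test, against 0.109%, 0.0197% and 0.108% of all genes. At an unadjusted p under 0.05 these counts were 2, 2 and 0, with Serpina3m beside Serpina3n in both PS/E4H comparisons. The share of all genes at that threshold was not computed. By edgeR's p, Serpina3n ranked 25 of 20202 genes over PS/E2H and 163 of 20332 over PS/E3H mice. DESeq2 called 1, 0 and 0 members and limma 0 in each. Serpina3m showed log2 fold changes of 5.08 ± 1.72 SE (edgeR adjusted p = 0.330) over PS/E2H and 3.82 ± 1.58 SE (edgeR adjusted p = 0.759) over PS/E3H mice, with 2 PS/E4H mice at 0.

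**Figure D5:**
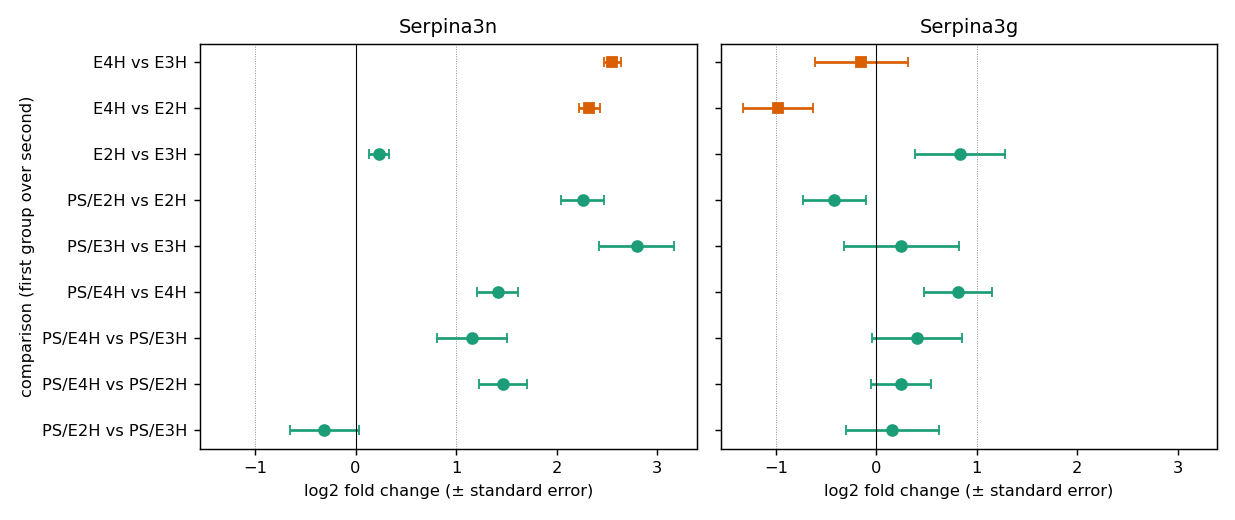
Log2 fold change of Serpina3n (left) and Serpina3g (right) in 9 comparisons (y axis, first group over second), with bars for ± 1 standard error derived from the edgeR F statistic, dotted lines at a 2-fold change and orange squares for the 2 comparisons the family was chosen by. Serpina3n lies between 1.41 and 2.80 in the 3 comparisons of PS19 with parental mice and near 0 for E2H against E3H, while Serpina3g stays within ± 1 throughout.

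Genes known to move with Serpina3n were read from lists in the same fits. In E4H against E3H mice 0 of 11 pan-reactive astrocyte genes tested were called, with a median log2 fold change of -0.29 against -0.0025 over all genes, and 4 passed an unadjusted p under 0.05. Gfap, the filament protein that marks reactive astrocytes, was at 234, 234 and 233 CPM in E4H mice and at 246, 249.6 and 237 CPM in E3H mice. C4b, a complement component that is expressed with Serpina3n in disease-associated oligodendrocytes, averaged 48.4 ± 2.90 CPM (SD, n = 3) in the E4H line and 62.4 ± 3.58 CPM (SD, n = 3) in the E3H line. Neither was called (edgeR's adjusted p = 0.880 and 0.107). So E4H mice had Serpina3n at 5.88-fold the E3H level with Gfap at 0.956-fold. None of the 8 lists had a called gene in either E4H comparison by edgeR or by DESeq2, and between 0 and 4 genes per list passed an unadjusted p under 0.05.

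With tau, listed genes were called higher beside Serpina3n in all 3 APOE backgrounds. The share of all genes called rose from PS/E2H to PS/E3H to PS/E4H mice, at 0.485%, 1.32% and 2.98%, and stands behind every list count below. Differences in these counts between backgrounds were not tested. DESeq2 called 6, 7 and 10 pan-reactive astrocyte genes in the same order. Of 12 pan-reactive astrocyte genes 2 were called higher in PS/E2H, 5 in PS/E3H and 11 in PS/E4H mice against their parental lines and 0 lower, with median log2 fold changes of 1.60, 1.40 and 2.05 against -0.015, -0.0043 and -0.0023 over all genes. Gfap rose 4.92-fold, 6.32-fold and 8.45-fold in these comparisons, and C4b 4.03-fold, 4.82-fold and 6.65-fold. In APOE4 mice the values were 8.45-fold for Gfap and 2.66-fold for Serpina3n, and the difference between the genes was not tested. Of 7 genes of disease-associated oligodendrocytes 3, 3 and 6 were called higher and 0 lower. Summed cell type markers differed between some of the same groups. Microglia markers were at 247 to 326 CPM in the parental mice and 379.8 to 632 CPM in PS19 mice. Astrocyte markers were higher in every PS19 group than in its parental line, at 2413 to 2718 and 2855 to 3522 CPM without and with tau for APOE2, 2631 to 2964 and 3240 to 3557 CPM for APOE3, and 2650 to 2767 and 3244 to 3859 CPM for APOE4. Oligodendrocyte markers overlapped for APOE2 (6340 to 7027 and 6055 to 7306 CPM) and were higher with tau for APOE3 (4744 to 5240 and 6340 to 6765 CPM) and APOE4 (5182 to 6165 and 7041 to 9129 CPM). Neuron markers were lower with tau for APOE4 (5615 to 6149 and 4811 to 5445 CPM) and overlapped for APOE2 (5578 to 6123 and 5168 to 5629 CPM) and APOE3 (5691 to 6043 and 5000 to 6061 CPM). Their part in the Serpina3n values was not tested.

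The IL-6 family of cytokines acts through the receptor chain Il6st and the transcription factor STAT3, a route known to drive acute phase serpins. Of its 18 listed genes, 17 were tested in PS/E2H, 17 in PS/E3H and 18 in PS/E4H mice. Among those, 0 were called in PS/E2H, 3 in PS/E3H (Osmr, Cebpd and Cntf) and 4 in PS/E4H mice (the same 3 and Socs3), all higher. In PS/E2H mice 5 passed an unadjusted p under 0.05 and DESeq2 called 1. Osmr, the oncostatin M receptor, rose 3.08-fold in PS/E3H and 4.55-fold in PS/E4H mice, and Cebpd, a transcription factor of the acute phase response, 3.09-fold and 3.49-fold. Socs3, a feedback inhibitor induced by STAT3, was 2.33-fold higher in PS/E4H mice (edgeR adjusted p = 0.00693). In E4H mice without tau, Osmr stood at 0.897-fold, Socs3 at 0.687-fold and Cebpd at 1.12-fold of E3H, and none was called.

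Among other serpins, Serping1, which blocks complement C1 proteases, was called higher in PS/E3H (2.27-fold) and PS/E4H mice (2.42-fold), and 0 of 10 tested were called in PS/E2H, where 5 passed an unadjusted p under 0.05 and DESeq2 called 0. Of 12 listed proteases, 8 were tested in PS/E2H, 9 in PS/E3H and 7 in PS/E4H mice. Among them Klk6, an oligodendrocyte kallikrein, was called higher in PS/E3H (2.10-fold) and PS/E4H mice (2.82-fold), and Mcpt4 in PS/E4H mice. Of 12 acute phase genes, 0 of 6 tested were called higher in PS/E2H, 1 of 7 in PS/E3H and 3 of 7 in PS/E4H mice. Of 12 interferon-induced genes, all tested, 4, 0 and 7 were called higher. For the lists with 0 calls in PS/E2H or PS/E3H mice, 3 to 8 genes passed an unadjusted p under 0.05 and DESeq2 called 0, apart from 1 gene of the IL-6 list. Of 6 homeostatic astrocyte genes Aqp4, the water channel, was the single call, in PS/E4H mice (2.05-fold). None of the 8 lists had a called gene among the comparisons of PS19 groups with each other or in E2H against E3H mice by edgeR, 0 to 6 genes per list passed an unadjusted p under 0.05, and DESeq2 called 2 interferon-induced genes in PS/E2H against PS/E3H.

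Genes around the cluster were read from the same fits. Of 71 annotated genes that start within 1 Mb of the outermost members, 29 were tested in E4H against E3H and 24 in E4H against E2H mice, and edgeR called 0 in both, with 0 at an adjusted p under 0.05 without the limit on fold. At an unadjusted p under 0.05, 0 and 3 passed, and DESeq2 called 0 in both. In the 3 tau comparisons 22, 26 and 23 were tested, and the interferon-induced gene Ifi27l2a was called higher in PS/E2H mice (log2 fold change 1.82), with 0 others called by edgeR. Ifi27l2a was at 0.77 in PS/E3H (edgeR adjusted p = 0.336) and 1.61 in PS/E4H mice (edgeR adjusted p = 0.0507). Without the limit on fold, 1, 1 and 3 neighbours passed an adjusted p under 0.05. At an unadjusted p under 0.05, 2, 4 and 7 passed, and DESeq2 called 1, 0 and 1.

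Over the 21 mice the 4 genes with the pattern most like Serpina3n, by Pearson's r of log2(CPM + 0.5) among 15771 genes with a mean of at least 1 CPM, were Anxa4 (r = 0.891), Arhgap30 (r = 0.881), Washc2 (r = 0.853) and Hspb6 (r = 0.851). The points share group differences, so r was also taken on deviations from the group means, where it was 0.593, 0.792, 0.482 and -0.07. Gfap had r = 0.770, and 0.744 within groups. Anxa4, a calcium-dependent membrane-binding annexin, had its 6 group means in the same order as Serpina3n. They were 5.85 ± 0.229 CPM in E3H (SD, n = 3), 6.02 ± 1.04 CPM in E2H (n = 3), 8.07 ± 0.754 CPM in PS/E2H (n = 4), 10.1 ± 0.0268 CPM in E4H (n = 3), 12.3 ± 3.01 CPM in PS/E3H (n = 4) and 18.9 ± 5.18 CPM in PS/E4H mice (n = 4).

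For Serpina3m the 3 most alike genes were Zhx1 (r = 0.755), Fbxo5 (r = 0.754) and Zscan12 (r = 0.699). Fbxo5, an inhibitor of the anaphase-promoting complex, averaged 3.58 ± 0.853 CPM over the 3 E4H mice (SD) and 2.57 ± 0.446 CPM over the 4 PS/E4H mice, and had means of 1.04 to 1.33 CPM in the other 4 groups. All these correlations are descriptions over 21 mice, of which those of a group share a genotype, and the genes were picked from the whole table for the size of r.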

How the data were processed

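Forebrain poly(A) RNA of 21 mice in 6 groups was sequenced with a stranded paired-end protocol. Per the labels and the study's methods, the authors trimmed reads with cutadapt, mapped them with HISAT2 (GRCm38.p5 in the submitters' processing notes) and assembled and quantified transcripts with StringTie, and the deposited count table holds whole-number counts per gene, without normalization. The deposited FPKM values were computed by the authors from transcript length and library size. How fragments shared between copies were divided is not given in the sources used here.

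Of the 55401 genes, 55141 identifiers were paired with a symbol. Genes and coordinates were taken from GENCODE M21 (GRCm38), and promoter windows from RefSeq (GRCm38.p6). The main test was edgeR 4.0.16 (R 4.3.3), on the 2 groups compared, with TMM scaling, filterByExpr (minimum count 10, minimum total 15), glmQLFit and glmQLFTest and Benjamini-Hochberg adjustment over all genes tested. Calls needed an adjusted p under 0.05 and a 2-fold change, as in the study. Interactions were fitted over 4 groups and needed only the adjusted p. The standard errors (SE) of log2 fold changes were derived from the test, as the absolute log2 fold change divided by the square root of its F statistic. CPM used TMM factors over all mice. The members were named by the rule that took the cluster by symbol, the likeness genes by Pearson's r, and the neighbours by distance. Some genes these rules and lists take are not reported here. The members and lists were chosen with earlier results of these data known.

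Alternatives were DESeq2 1.42.0, RLE normalization, no filter, 1 fit over all groups, limma 3.58.1 on log2(FPKM + 1) or log2(FPKM + 0.1) with a mean FPKM of at least 0.1 or no filter, the replicate number as a block, Xist as a covariate, no limit on the fold and each mouse left out. Leaving out the 4 mice with Ddx3y counts was added after the data were seen. Replicate numbers did not pair mice: over 30 pairs of equal number, correlations of deviations from group means ran from -0.276 to 0.324, and 4 exceeded 0.1. The 27 pairs of mice within groups differed by far more than counting error (chi-square per gene from 17.9 to 73.1). The limit of 3 counts covers counting error only. The edgeR script was tested on simulated data with known changes.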

Additional observations from a re-analysis of the deposited data

How the results depend on the processing

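Serpina3n kept its direction and its side of the threshold under all alternatives in PS/E2H against E2H (log2 change 2.09 to 2.42) and in PS/E4H against E4H mice (1.35 to 1.57), and, leaving out 1 mouse at a time, ran from 2.13 to 2.40 and from 1.25 to 1.59. In PS/E3H against E3H mice it was no longer called by limma on log2(FPKM + 1) with no filter (2.51, adjusted p = 0.0997), which tests more genes, and ran from 2.46 to 3.06 with 1 mouse left out. In PS/E4H against PS/E2H mice DESeq2 (1.47, adjusted p = 0.000411) and 1 fit over all groups (1.47, adjusted p = 0.0213) called it, so that 1 member was called in place of 0, and the leave-one-out range was 1.30 to 1.63 with 0 to 1 members called. Against PS/E3H it ran from 0.89 to 1.49. In PS/E2H against PS/E3H it ran from -0.58 to 0.027 with 1 mouse left out, the last value without PS/E3H mouse 4. Leaving out the 4 mice with Ddx3y counts changed no Serpina3n call.

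For PS/E4H against E4H mice 1 member in place of 2 was called with no filter, with 1 fit over all groups, by limma under each setting, with the replicate block and with Xist as a covariate, each time without Serpina3i, and 1 to 2 were called with 1 mouse left out. For PS/E3H against E3H mice 2 members were called in the fit over all groups, 0 by limma with no filter, and 1 to 2 with 1 mouse left out. Directions of low members turned as follows. Serpina3m in PS/E4H against E4H mice was at -0.13 by limma on log2(FPKM + 1), with and without the filter, at -1.37 on log2(FPKM + 0.1), and between -0.094 and 1.15 with 1 mouse left out. Serpina3g in PS/E3H against E3H mice was at -0.16 with the replicate block, at -0.053 with Xist as a covariate, and between -0.10 and 0.91 with 1 mouse left out. Serpina3i was at 0.15 with the replicate block in PS/E4H against PS/E3H mice and at -0.56 without the Ddx3y mice in PS/E4H against PS/E2H mice. Serpina3f in PS/E4H against PS/E2H mice was at 0.057 with the block and at 0.43 without the Ddx3y mice. With 1 mouse left out, Serpina3i ran from -1.15 to 1.17, from -0.34 to 0.64 and from -1.24 to 0.96 in PS/E4H against PS/E3H, PS/E4H against PS/E2H and PS/E2H against PS/E3H, Serpina3f from -0.95 to 1.25 in PS/E4H against PS/E2H, Serpina3g from -0.10 to 0.51 in PS/E2H against PS/E3H, Serpina3g from -0.46 to 0.51 and Serpina3k from -1.01 to 1.26 in E4H against E3H, and the Serpina3m interaction of APOE2 with APOE3 from -0.62 to 4.57. The cause of these turns was not tested, and all rest on genes with few counts or mice at 0.

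The count of all genes called depended on the tool. For E2H against E3H (30) it was 56 by DESeq2, and 16 and 7 by limma on log2(FPKM + 1) with and without a filter. For PS/E4H against PS/E3H (4) it was 13 by DESeq2, 10 in the fit over all groups, 2 with no filter, 1 by limma with or without a filter, 1 with Xist and 0 with the replicate block. For PS/E4H against PS/E2H (22) it was 68, 48 in the fit over all groups, and 9 and 8 by limma. For PS/E2H against PS/E3H (22) it was 62, 38, and 12 and 1. For PS/E2H against E2H (100) it was 260 by DESeq2, 208 in the fit over all groups, 55 with no filter, 33 and 16 by limma and 155 with no limit on the fold. For PS/E3H against E3H (281) it was 173 with no filter, 59 and 4 by limma on log2(FPKM + 1), 184 on log2(FPKM + 0.1), 157 with the replicate block, 147 with Xist and 1141 with no limit on the fold. For PS/E4H against E4H (621) it was 132 and 116 by limma and 3252 with no limit on the fold. For E4H against E3H (21) it was 36 by DESeq2, 13 with no filter, 11 by limma with or without a filter, 12 with the replicate block and 34 with no limit on the fold. For E4H against E2H (39) it was 86 by DESeq2, 23 and 11 by limma and 25 with the block. For the interaction of APOE2 with APOE3 (0) it was 10 by DESeq2. With 1 mouse left out these counts ran from 13 to 17 in E4H against E3H, 30 to 99 in PS/E2H against E2H, 77 to 494 in PS/E3H against E3H, 384 to 702 in PS/E4H against E4H, 0 to 6 in PS/E4H against PS/E3H, 14 to 23 in PS/E4H against PS/E2H, 14 to 20 in PS/E2H against PS/E3H and 0 to 2 in the interaction. Replicate numbers share only a number here, and the replicate block changed no Serpina3n call. Low counts limit the other members: those under the filter on low counts could not be tested.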
